A study of Homo sapiens with 2 samples.

Results

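The motile cilia genes of airway epithelium were read in ATAC-seq data of B2B cells. In both replicates 47 of the 79 genes (59.5%) had accessible chromatin at their promoter, beside 52.3% of all protein-coding genes. Genes with the same promoter CpG counts would give 42.8. When only peaks nearest to the gene's own transcription start site counted, 38 genes (48.1%) remained, beside 46.0% of all genes. The genes were chosen by symbol alone, as the protein-coding genes of GENCODE 44 named DNAH, DNAI, CFAP or DNAAF with a number, or RSPH with a number and at most a closing A or B, which gave 79 of 20007 genes. They comprised 44 CFAP, 13 DNAH, 10 DNAAF, 7 RSPH and 5 DNAI genes. B2B is the BEAS-2B line, immortalized bronchial epithelial cells of wild-type genotype, grown without treatment in medium with fetal bovine serum. The study profiled the line in 2 replicates, and each replicate has a MACS2 peak list of its own, with 28735 and 36162 peaks on chromosomes 1 to 22, X and Y. The study's methods call them biological replicates without saying whether they were separate cultures, and no other condition was analysed here, so the values describe 1 group and no test was run between groups. RNA was not measured in these lists.

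Motile cilia are the beating projections with which multiciliated cells of the airway move mucus. Their core, the axoneme, carries rows of outer and inner dynein arms, which are motors built from heavy chains (DNAH) and intermediate chains (DNAI), and radial spokes (RSPH), which control the motors from the centre. DNAAF proteins assemble the arms in the cytoplasm before transport into the cilium, and the CFAP genes encode many other parts of the axoneme. The transcription factors FOXJ1 and RFX2 and RFX3 are known to switch these genes on when an airway cell becomes multiciliated, RFX factors by binding the X-box. Loss of function in a number of these genes causes primary ciliary dyskinesia, an inherited disease of impaired ciliary movement.

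Peaks were counted at a gene when they came within 1 kb of the transcription start site (TSS) of its canonical transcript, and the number of CpG dinucleotides within 500 bp of that TSS was counted beside them, because CpG-rich promoters are accessible in most cell types. The fold enrichment of a peak is the number of fragments over its summit divided by the local background, each with 1 added. To show what such promoters look like, the 150 bases upstream of the TSS are given for 4 of the genes, 5′ to 3′ on the strand of the gene in hg38, with CpGs in capitals.
RSPH4A, chr6:116616329-116616478, plus strand: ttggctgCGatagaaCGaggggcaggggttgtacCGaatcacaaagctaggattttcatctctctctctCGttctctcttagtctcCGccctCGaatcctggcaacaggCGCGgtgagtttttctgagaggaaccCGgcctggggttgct
CFAP43, chr10:104232365-104232514, minus strand: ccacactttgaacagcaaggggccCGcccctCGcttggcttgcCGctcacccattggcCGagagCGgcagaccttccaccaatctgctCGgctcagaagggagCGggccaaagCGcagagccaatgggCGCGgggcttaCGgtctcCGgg
DNAH9, chr17:11598320-11598469, plus strand: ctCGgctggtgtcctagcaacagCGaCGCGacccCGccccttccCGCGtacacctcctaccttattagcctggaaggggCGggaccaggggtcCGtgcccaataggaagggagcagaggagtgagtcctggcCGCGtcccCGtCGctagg
DNAH5, chr5:13944689-13944838, minus strand: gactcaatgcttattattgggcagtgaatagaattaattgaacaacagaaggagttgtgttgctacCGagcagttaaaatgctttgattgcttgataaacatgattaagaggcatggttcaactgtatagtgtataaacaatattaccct
Both RSPH4A and CFAP43 had peaks in both replicates and CpG counts of 44 and 70 over the whole window. DNAH9 and DNAH5 had none, with CpG counts of 80 and 11. The stretch of DNAH9 holds 13 CpGs and that of RSPH4A 9. These 4 genes were chosen after their values were seen, so they cannot show how CpGs and peaks go together.

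Of the 79 genes, 47 had a promoter peak in both replicates, 6 in 1 replicate and 26 in neither. Over all protein-coding genes, 52.3% had a peak in both replicates, 6.69% in 1 replicate only and 41% in neither, and the corresponding shares of the motile cilia genes were 59.5%, 7.59% and 32.9%. Replicate 1 had a peak at 49 of the 79 genes, beside 53.2% of all genes, and replicate 2 at 51, beside 58% of all genes. The share averaged over the replicates was 63.3% ± 1.79 (SD, n = 2) for the motile cilia genes and 55.6% ± 3.38 for all genes. These SDs reflect a shift between the libraries in both sets and do not measure the uncertainty of a share over 79 genes. Their promoters held fewer CpGs than most, with a median of 56 against 66 over all genes. Genes with the same CpG counts would give 42.8 genes with a peak in both replicates, computed from the share with a peak in each of 10 CpG groups. The genes with a peak in both replicates had a median of 63 CpGs, those with a peak in 1 replicate 72.5 and those without a peak 42.

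**Figure D1:**
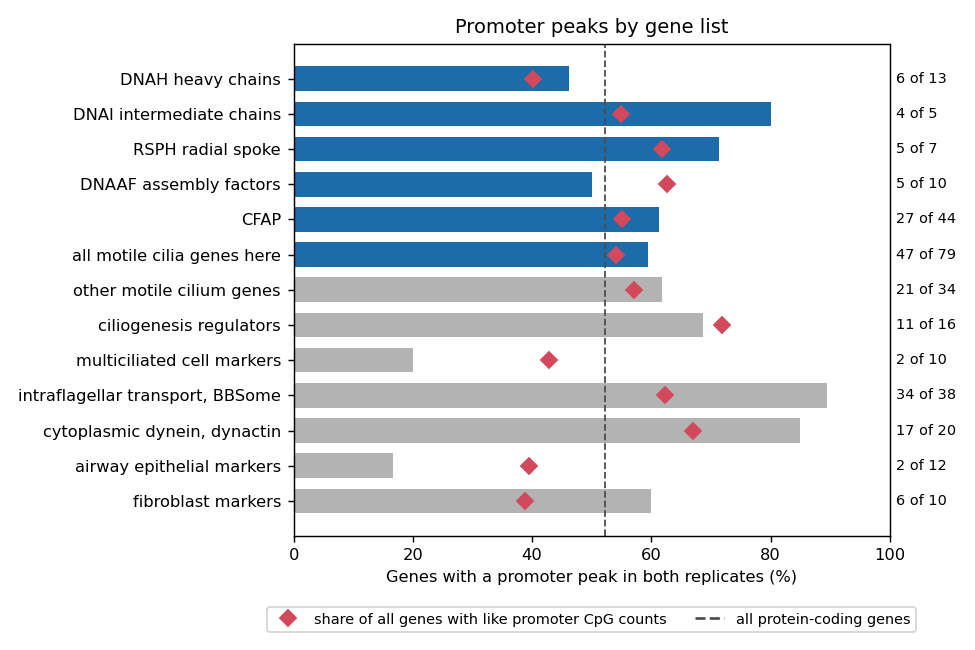
Share of each gene list with a promoter peak in both replicates, in percent, as bars (blue for the motile cilia genes and their families, grey for other lists), with the number of genes at the right. The red diamond is the share that all genes with the same promoter CpG counts have and the dashed line the 52.3% of all protein-coding genes. Intraflagellar transport genes stand farthest above their diamond. The DNAAF family, the ciliogenesis regulators, and the multiciliated and airway epithelial markers lie below theirs.

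The motile cilia genes were also set beside all genes by CpG count. In the 3 lowest of the 10 CpG groups, with at most 41 CpGs, 5 of 18 motile cilia genes had a peak in both replicates (27.8%), while 9.86% of all genes in these groups did. These shares are not matched in CpG count, because 10 of the 18 genes were in the group of 21 to 41 CpGs. That group held all 5 with a peak, and 21.0% of all its genes had one. These 5 were CFAP73 with 23 CpGs, DNAI3 with 27, DNAH6 with 39, and CFAP161 and CFAP52 with 40 each. The 4 genes of the lowest group and the 4 of the next had no peak. In the groups with 41 CpGs or more, 42 of 61 had a peak in both replicates (68.9%), against 70.4% of all genes. Here too the shares are not matched, because 22 of the 61 were in the group of 41 to 56 CpGs. In that group 15 of the 22 had a peak, beside 56% of all genes. The next group, of 56 to 66 CpGs, went the other way with 6 of 12 beside 67.8%. Groups with more CpGs stood on both sides. At 66 to 76 CpGs 7 of 7 had a peak beside 73.7%, and at 114 or more 3 of 3 beside 72.6%. Lower shares were 6 of 9 at 76 to 86 CpGs beside 71.75%, 3 of 5 at 86 to 98 beside 76.8%, and 2 of 3 at 98 to 114 beside 74.5%. The 18 genes are few, and CFAP52 was reached by a peak 663 bp from its TSS in replicate 1, with the highest summit of each replicate nearer to the neighbouring gene STX8.

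**Figure D2:**
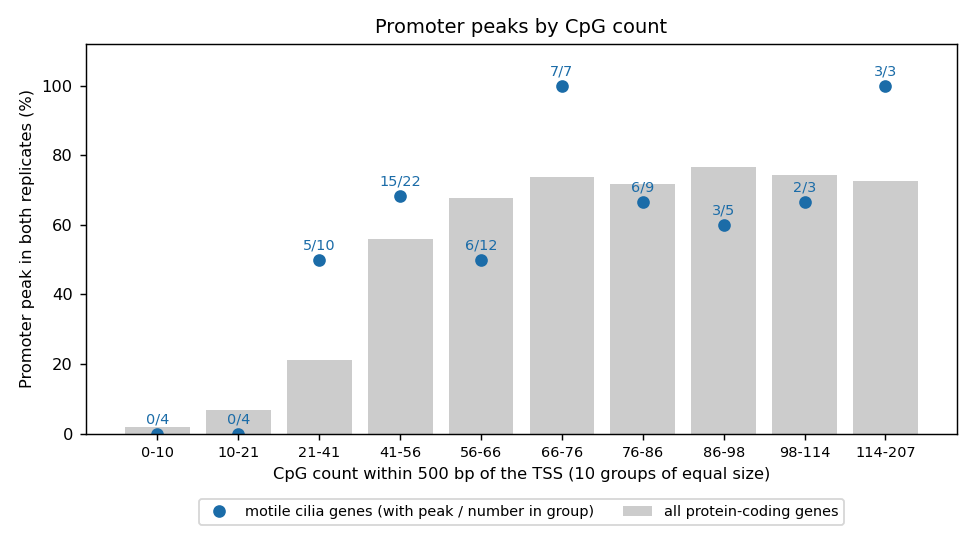
Percent of genes with a promoter peak in both replicates (vertical axis) in 10 groups of equal size by CpG count within 500 bp of the TSS (horizontal axis; genes with the count at a boundary can fall on either side of it). Grey bars are all protein-coding genes and blue points the motile cilia genes, with their numbers; in the group of 21 to 41 CpGs, 5 of 10 had a peak beside 21.0% of all genes.

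**Figure D3:**
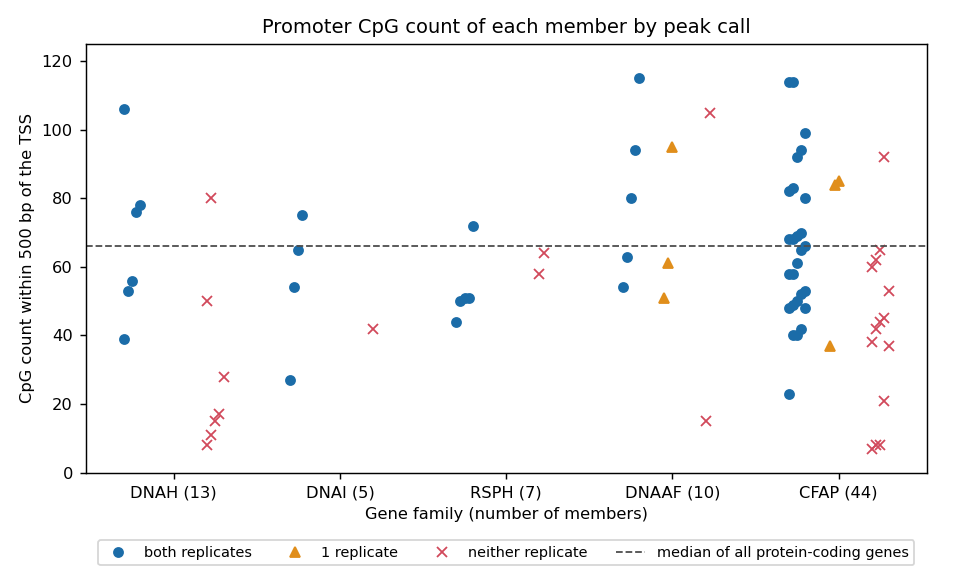
CpG count within 500 bp of the TSS (vertical axis) of each of the 79 genes by family, with circles for a peak in both replicates, triangles for 1 replicate and crosses for neither; the dashed line is the median of all genes, 66. Genes without a peak run from 7 to 105 CpGs and genes with a peak in both replicates from 23 to 115.

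Among the dynein heavy chains, the motors themselves, 6 of 13 genes (46.2%) had a promoter peak in both replicates, while 7 had none. CpG counts would give 5.22 with a peak, and 52.3% of all genes had one. Of the 5 outer arm chains, DNAH11 was the one with a peak. The peak was enriched 8.66-fold in replicate 1 and 13.4-fold in replicate 2. DNAH5, its partner in the proximal outer arms of airway cilia, DNAH9, which takes its place in the distal arms, and DNAH8 and DNAH17, which are known from sperm flagella, had no peak in either replicate at the canonical TSS, though DNAH5 had one at another TSS 67.1 kb upstream. Their CpG counts were 11, 80, 50 and 17. With these counts and the 76 of DNAH11, 2.13 of the 5 genes would have a peak. The promoter of DNAH9 was far from any peak, the nearest lying 398 kb away.

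Of the 8 inner arm heavy chains, 5 had a peak in both replicates, where CpG counts alone would give 3.09. DNAH6 had a fold enrichment of 20.4 in replicate 1 and 23.3 in replicate 2, and DNAH7 had 16.1 and 16.5. DNAH14 had 12.8 and 13.6. These 3 chains stood above the median of all genes with a peak, 8.14 in replicate 1 and 9.64 in replicate 2. DNAH2 reached 3.81 and 6.34, and DNAH10 3.81 and 4.76. Both are below those medians, and DNAH10 has 106 CpGs while DNAH6 has 39. DNAH1, DNAH3 and DNAH12 had no peak, with 8, 15 and 28 CpGs.

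The intermediate chains, which hold the arms together and dock them, had promoter peaks in both replicates in 4 of 5 genes, beside 2.74 from CpG counts. DNAI1, of the outer arm, reached a fold enrichment of 8.66 in replicate 1 and 9.97 in replicate 2. Its partner in the same arm, DNAI2, had no peak, and the nearest lay 60.6 kb away. The inner arm genes DNAI3, DNAI4 and DNAI7 all had peaks in both replicates. DNAI3 had 14.6 and 20.2, the highest of the family, at a promoter with 27 CpGs. DNAI4 had 14.1 and 10.5. DNAI7 had 7.1 and 16.1, a ratio between replicates that no other gene here reached. The summits at DNAI1, DNAI4 and DNAI7 lay nearest to the TSS of FAM219A, MIER1 and ETFRF1, each on the opposite strand within 1 kb, so that accessibility at these promoters cannot be told apart from that of the neighbour. DNAI3 has no such neighbour.

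Of the radial spoke genes, 5 of 7 had a peak in both replicates, beside 4.33 from CpG counts. RSPH4A, a protein of the spoke head, had the highest mean fold enrichment of all 79 genes, 24.9 ± 3.79 (SD, n = 2), with 27.5 in replicate 1 and 22.2 in replicate 2. RSPH1, another spoke head protein, had 18.0 and 22.7. RSPH3, of the spoke stalk, had 14.1 and 12.9, and RSPH9, also of the head, had 10.2 and 8.84. RSPH14 was the weakest with 5.20 and 5.07. Thus RSPH1, RSPH3 and RSPH4A exceeded the median of all genes in both replicates, and RSPH9 in replicate 1. RSPH6A, the sperm counterpart of RSPH4A, had no peak despite 64 CpGs. RSPH10B had none either, but a near-identical copy of it, RSPH10B2, can keep reads from mapping there, and how such reads were treated is not given in the sources used here.

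The assembly factors had many calls in a single replicate. Of 10 genes, 5 had a peak in both replicates, 3 in 1 and 2 in neither, and CpG counts would give 6.27 with a peak in both. DNAAF3 had a fold enrichment of 8.84 in replicate 1 and 13.6 in replicate 2, the highest of the family. DNAAF8 had 7.62 and 12.9, DNAAF2 7.62 and 9.30, DNAAF9 7.07 and 7.05, and DNAAF10 6.24 and 7.70. The highest summits at DNAAF2 lay 819 and 943 bp downstream of its TSS, in an exon. Replicate 1 also had a peak of 3.98 there with its summit 29 bp downstream. In replicate 2 the nearest peak edge was 318 bp from the TSS of DNAAF2. DNAAF1 had a peak of 5.21 in replicate 2, DNAAF6 one of 4.08 in replicate 2 and DNAAF11 one of 4.33 in replicate 1. All 3 values are below the median of all genes in that replicate, and the summit at DNAAF1 lay nearer to the TSS of the neighbour HSDL1. DNAAF4, with 15 CpGs, and DNAAF5, with 105, had no peak. DNAAF5 had the most CpGs of the 26 genes without a peak, and the nearest peak was 86.3 kb away.

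Among the 44 CFAP genes, 27 had a peak in both replicates, 3 in 1 and 14 in neither, beside 24.2 given by CpG counts. Fold enrichments ran from 4.68 to 19.4 in replicate 1 and from 4.30 to 23.1 in replicate 2. CFAP43, part of the complex that tethers an inner arm dynein to the microtubule, had 19.4 and 23.1. CFAP44, its partner in that complex, had no peak, and the nearest was 73.2 kb away. CFAP210, a protein of the inside of the microtubules, had 16.5 and 20, and CFAP61, of the complex at the spoke base, had 17.1 and 18.4. CFAP97 had 18.2 and 15.1, and CFAP36 15.4 and 16.3. These 5 genes are among the 10 highest of all, together with RSPH4A, DNAH6, RSPH1, DNAI3 and DNAH7. At the other end, CFAP57 had 5.37 and 4.30 and CFAP161 6.06 and 4.30.

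The CFAP genes were also grouped by the structure they belong to, a grouping made after their values were seen. Of 15 microtubule inner proteins, which line the inside of the axonemal microtubules, 7 had a peak in both replicates and 3 in 1, and CpG counts would give 6.02. Of the 4 genes of the C1d projection of the central pair, CFAP54 and CFAP221 had peaks and CFAP46 and CFAP74 did not. Of the 3 genes of the calmodulin and spoke associated complex, CFAP61 and CFAP91 had peaks and CFAP251 did not. CFAP73 had a peak and its partner CFAP100 in the modifier of inner arms complex did not. Each of these complexes, the tether included, therefore held genes with and without a promoter peak in the same cells. The other 18 CFAP genes had peaks in 14 cases, beside 11.0 from CpG counts.

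**Figure D4:**
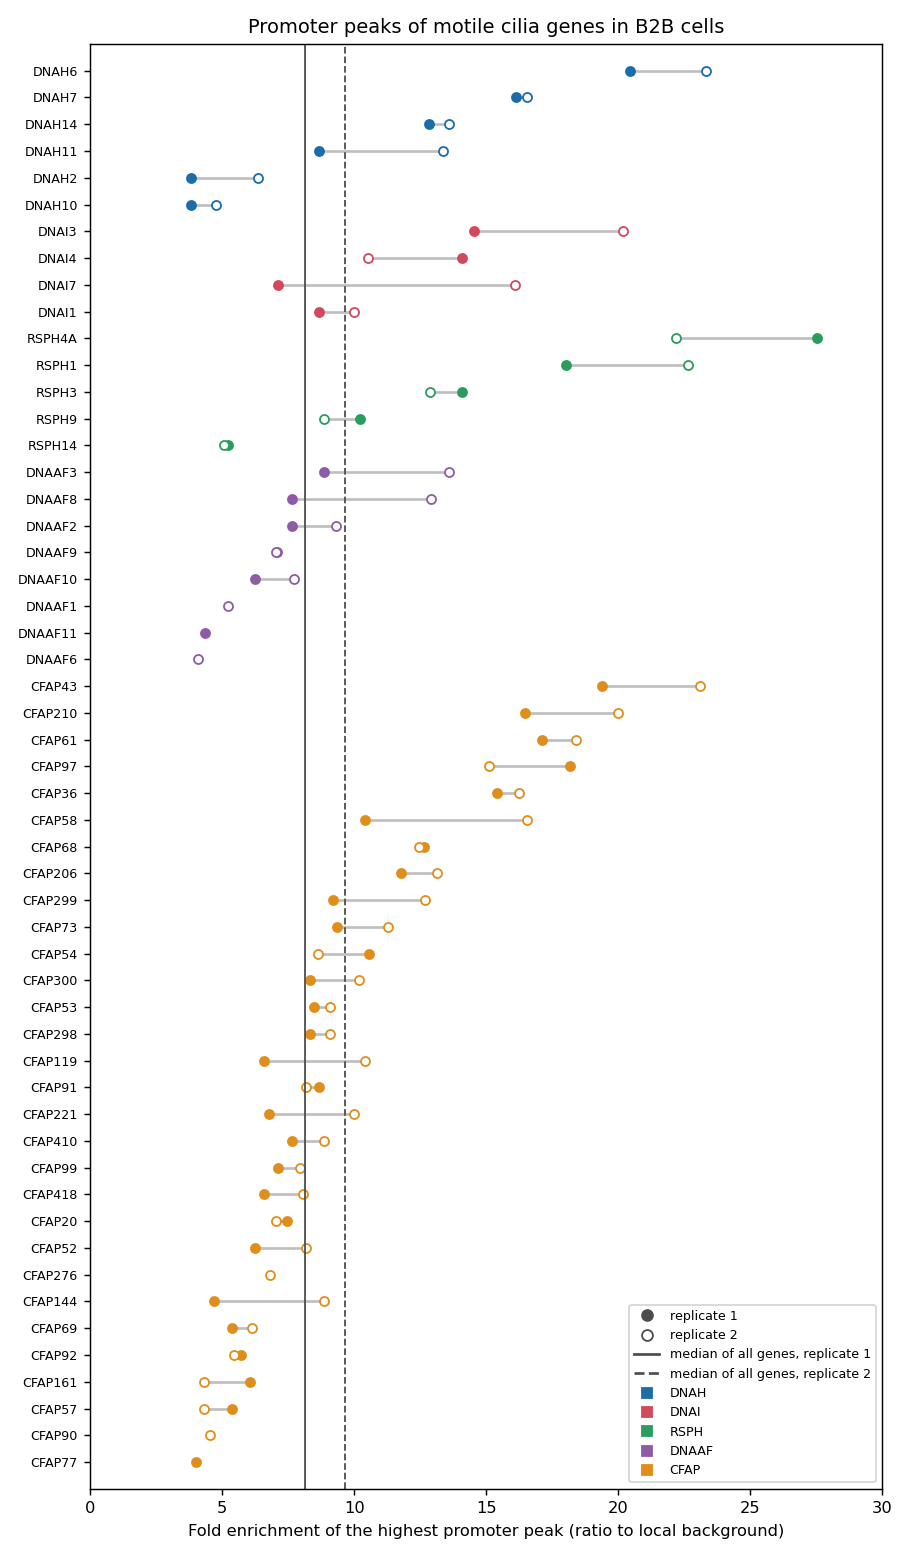
Fold enrichment of the highest promoter peak (horizontal axis, ratio to the local background) of the 53 motile cilia genes with a peak, one row per gene and coloured by family. Filled circles are replicate 1 and open circles replicate 2, joined where both had a peak, and vertical lines are the medians of all genes, 8.14 (solid) and 9.64 (dashed); RSPH4A, DNAH6, CFAP43 and RSPH1 lie farthest right.

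Across the 47 genes with a peak in both replicates, replicate 1 gave a median fold enrichment of 8.66 and replicate 2 one of 10.2. Averaged over the replicates this was 9.43 ± 1.08 (SD, n = 2), against 8.89 ± 1.06 for all genes, where the SDs reflect a shift between the libraries that both sets share. Within replicates the median of the motile cilia genes was higher by 0.52 and 0.556, a difference given as a description. The values reached the highest 10% of all genes with a peak, which starts at 15.2 and 16.1, for 9 genes in replicate 1 and 11 in replicate 2. Fold enrichment was higher in replicate 2 at 33 of the 47 genes, as at 7476 of 10456 genes in all. Over the 47 genes its Spearman correlation between the replicates was 0.858, and over all genes 0.857, where the points are genes of the same pair of libraries. Read totals are not in the lists, so the depth was taken from the peaks. The summits at the 47 promoters had a median of 49 fragments in replicate 1, from 21 to 164, and of 45 in replicate 2, from 18 to 134.

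The 6 genes with a peak in 1 replicate had low values. They reached fold enrichments of 3.98 to 6.80 on 17 to 29 fragments. CFAP276 had 6.80, DNAAF1 5.21, CFAP90 4.53 and DNAAF6 4.08 in replicate 2, and DNAAF11 4.33 and CFAP77 3.98 in replicate 1. The summit of the 4.53 peak at CFAP90 lay 1082 bp downstream of the TSS, and another peak of 4.30 had its summit 184 bp downstream. The promoters of the 6 genes were not poor in CpGs, with 37 at CFAP276 and 51 to 95 at the others. A weak peak in 1 list and none in the other was not distinguishable from a difference in detection at this depth, and a gene without a peak need not be closed.

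The peaks sat close to the start sites. Summits lay at a median of 60 bp upstream of the TSS in replicate 1 and 55 bp in replicate 2, with 85.1% and 83.0% within 250 bp, beside 79.1% and 78.7% over all genes. The replicates placed the summit within 100 bp of each other at 41 of 47 genes, and the largest distance was 515 bp, at DNAI4. Just inside the 1 kb limit lay CFAP52, whose peak edge in replicate 1 was 663 bp from the TSS. The first gene outside it was CFAP100, with its nearest peak 5376 bp away. Of the 26 genes without a peak, 20 had none within 10 kb and 9 none within 50 kb, and the median distance to the nearest peak was 31.2 kb.

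A neighbour with a start site on the opposite strand within 1 kb was common. Such head-to-head partners were found at 14 of the 79 genes (17.7%), against 9.47% of all genes, and 12 of the 14 had a peak in both replicates (85.7%), beside 87.3% of all genes with a partner. Without a partner, 35 of 65 motile cilia genes had a peak (53.8%), against 48.6% of all such genes. Summits lay nearest to another gene's TSS in both replicates at 8 genes. These were CFAP52, DNAI1, DNAI4 and DNAI7, named above, and CFAP119, CFAP206, CFAP68 and DNAAF10, whose summits lay nearest to RNF40, ENSG00000213204, FDXACB1 and PNO1. CFAP210 had its summit nearest to PHOSPHO2 in replicate 1 and to its own TSS in replicate 2. The summits of CFAP61 and CFAP57 lay nearest to their own TSS, with the partners CRNKL1 66 bp and EBNA1BP2 40 bp away. Accessibility at these 2 promoters cannot be told apart from that of the partner. With the count limited to peaks nearest to the gene's own TSS, 38 of 79 genes kept a peak in both replicates (48.1%), against 46.0% of all genes.

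Of the 26 genes without a peak at the canonical TSS, 4 had one in both replicates at the TSS of another annotated transcript. At DNAH5 this TSS lay 67.1 kb upstream (chr5:14011818), and its peak had a fold enrichment of 13.5 in replicate 1 and 19.4 in replicate 2. These values would place it among the higher ones of the heavy chains. At DNAAF4 the TSS lay 9.86 kb downstream (chr15:55498377), with 14.7 and 15.9. At CFAP74 it lay 43.7 kb downstream, with 4.33 and 5.21. At DNAH3 it lay 8.60 kb upstream, with 5.54 and 7.48, but that peak is 42 bp from the TSS of the gene LDAF1. Whether these transcripts are made in B2B cells was not measured here.

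Inside the genes, more than 1 kb from the TSS, 21 of 79 (26.6%) held a region with peaks in both replicates, beside 24% of all genes. Since the motile cilia genes are long, with a median of 64.1 kb against 27.5 kb, the 27 regions amount to 0.308 per 100 kb, against 0.657 over all genes. The heavy chain genes, with a median length of 303 kb, held 8 regions in 5 genes, or 0.228 per 100 kb. Of these, DNAH11 held 3, at 75.1, 132 and 224 kb from its TSS. Their fold enrichments were 7.1, 6.06 and 7.28 in replicate 1 and 11.8, 4.53 and 8.61 in replicate 2. Of the 27 regions 8 lay within 1 kb of another TSS of the same gene, and 12 were nearest to the canonical TSS of a different gene.

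The X-box was searched for because RFX factors bind it in the promoters of cilia genes. It was taken as GTTNCC and GGNAAC with 0 to 3 bases between them, where N is any base, within 500 bp of the TSS. The motif is its own reverse complement, so the search covers both strands. It was found at 5 of 79 motile cilia promoters (6.33%) and at 264 of all 20007 (1.32%). The stretches of 4 of them follow, 5′ to 3′ on the strand of the gene in hg38, with the X-box in capitals.
CFAP276, chr1:109112766-109112818, minus strand: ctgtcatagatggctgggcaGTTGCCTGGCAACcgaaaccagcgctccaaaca
CFAP90, chr5:7851134-7851176, minus strand: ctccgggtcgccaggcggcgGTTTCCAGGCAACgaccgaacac
CFAP45, chr1:159900166-159900204, minus strand: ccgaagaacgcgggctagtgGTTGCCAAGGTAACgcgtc
DNAH1, chr3:52316194-52316247, plus strand: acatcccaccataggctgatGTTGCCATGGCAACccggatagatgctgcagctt
These 4 lay upstream of the TSS, by 19 to 105 bp. CFAP276 had a peak over its X-box in replicate 2. Neither of the peaks of CFAP90 in replicate 2 covered the motif, and CFAP45 and DNAH1 had no promoter peak, although the X-box of DNAH1 is a full palindrome. Of all genes with an X-box, 63.3% had a peak in both replicates, and of the 5 genes 1 did.

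When 1 fixed base was left free, as GTNNCC with GGNAAC or GTTNCC with GGNNAC, a form that includes the one above, 22 of the 79 promoters held a match (27.8%) against 5.13% of all genes. The 22 genes had 25 sites, and 24 of these lay upstream of the TSS, 20 of them within 60 bp. Of the 13 heavy chains 5 hold this form. DNAH1 and DNAH12 had no promoter peak, and DNAH2 had low fold enrichments of 3.81 in replicate 1 and 6.34 in replicate 2. The stretches of the other heavy chains, DNAH6 and DNAH11, with high and intermediate fold enrichment, follow.
DNAH6, chr2:84516402-84516454, plus strand: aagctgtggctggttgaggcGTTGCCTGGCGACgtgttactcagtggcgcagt
DNAH11, chr7:21542991-21543038, plus strand: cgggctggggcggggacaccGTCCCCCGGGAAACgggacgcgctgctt
Of the 22 genes 12 had a promoter peak in both replicates (54.5%), beside 35 of the 57 without a match (61.4%). Over all genes the shares ran the other way, with 62.4% of the genes with a match and 51.7% of those without. At 9 of the 12 motile cilia genes the peaks of both replicates covered the site. Matches therefore stood at genes with and without a peak. Other cilia gene lists also held the relaxed form, at 13 of 34 other motile cilium genes (38.2%) and 10 of 38 intraflagellar transport and BBSome genes (26.3%), while cytoplasmic dynein and dynactin genes held it at 1 of 20. A match is a description of the letters and not a bound site.

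**Figure D5:**
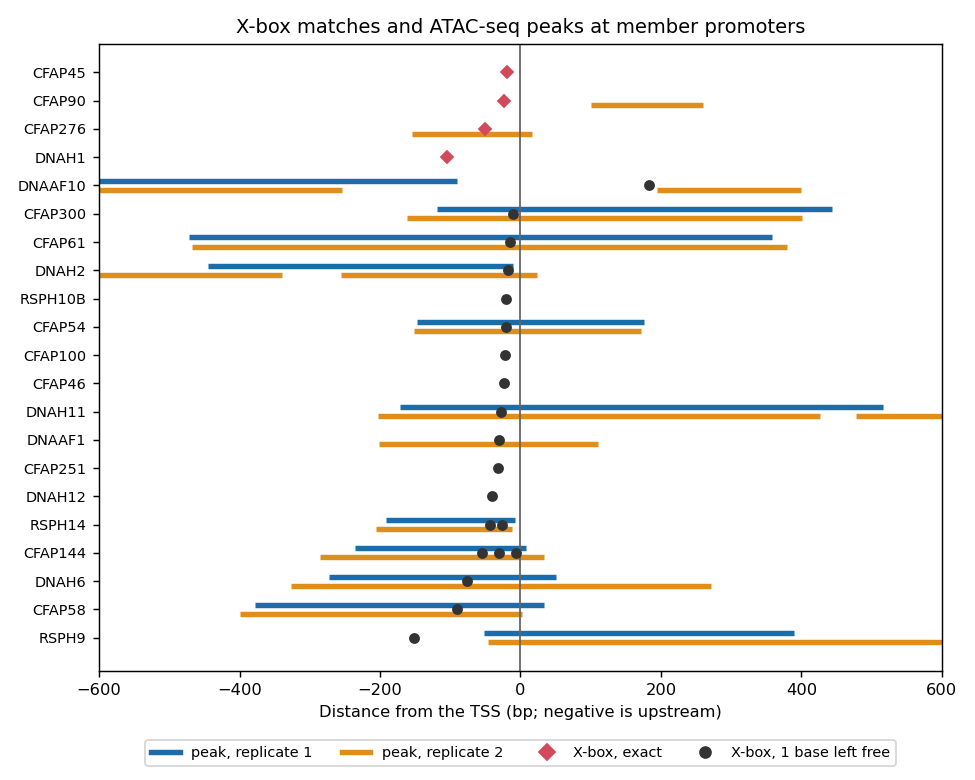
Position of X-box matches (red diamonds for the exact form, black circles with 1 base left free) and of ATAC-seq peaks (blue bars for replicate 1, orange bars for replicate 2) by distance from the TSS in bp, upstream to the left, for 21 of the genes with a match. Of the 24 matches drawn 23 stand upstream of the TSS, and rows without bars are genes without a promoter peak within the plotted 600 bp.

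The regulators of the ciliogenesis programme had promoter peaks in both replicates in 11 of 16 cases, beside 11.5 from their CpG counts. FOXJ1, the factor that drives motile ciliogenesis, had a fold enrichment of 6.24 in replicate 1 and 9.06 in replicate 2, below the median of all genes in both. GMNC and MCIDAS, the geminin relatives that start the multiciliated fate, had 11.3 and 10.9, and 8.66 and 9.91. CCNO and CDC20B, which lie beside MCIDAS in the genome, had 9.66 and 8.74, and 7.62 and 6.92. RFX3 had 9.54 and 8.90, RFX2 5.89 and 7.70, and RFX1 9.88 and 11.3. MYB had 5.37 and 6.94, TFDP1 7.28 and 12.2, and E2F5 6.41 and 10.2. TP73 had a peak of 4.53 and E2F4 one of 6.12 in replicate 2 only, and DEUP1, RFX4 and FOXN4 had none.

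Other lists place these values. Of 34 other motile cilium genes, such as those for the docking of the arms and the ruler of the axoneme, 21 had a peak in both replicates, beside 19.4 from CpG counts. The genes of intraflagellar transport and the BBSome, which serve primary as well as motile cilia, had a peak in 34 of 38 cases (89.5%) where CpG counts would give 23.6. Cytoplasmic dynein and dynactin, the cargo motor of all cells, had one in 17 of 20, beside 13.4. Of 10 markers of multiciliated cells 2 had a peak in both replicates where CpG counts would give 4.29, FOXJ1 and TUBA1A, and PIFO had one in replicate 1. Of 12 airway epithelial markers, KRT18 and NKX2-1 had one in both and KRT8 in replicate 2, while CDH1, EPCAM, KRT5, KRT14, KRT19 and TP63 had none, and the CpG counts of this list, with a median of 38, would give 4.73. Of 10 fibroblast markers, 6 had one beside 3.88 from CpG counts, VIM, COL1A1, FN1, PDGFRB, SPARC and TWIST1. Some of these marker peaks lay far from the TSS. The highest summits at COL1A1 were 958 bp downstream in replicate 1 and 1317 bp in replicate 2, the latter outside the 1 kb limit. Those at VIM were 943 and 392 bp downstream, and those at KRT18 752 and 746 bp. These marker counts describe the labelled cell type but are no independent check of it, because the lists were chosen with earlier results of these data known. Most of the defining airway epithelial markers had no peak within 1 kb of the canonical TSS. Other TSSs of these markers are not covered by the counts.

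Of 19 members known as primary ciliary dyskinesia genes, 11 had a promoter peak in both replicates (57.9%), 3 in 1 and 5 in neither, beside 52.3% of all genes with a peak in both and 11.4 genes from CpG counts. Those not given above are CFAP298 with 8.32 and 9.06, CFAP300 with 8.32 and 10.2, and CFAP221 with 6.76 and 9.97. The 5 without a peak were DNAH5, DNAH9, DNAI2, DNAAF4 and DNAAF5. Among the 26 genes without a peak, those with the most CpGs were DNAAF5 with 105, CFAP46 with 92, DNAH9 with 80, CFAP100 with 65 and RSPH6A with 64. The others without a peak were CFAP44, CFAP45, CFAP47, CFAP65, CFAP70, CFAP74, CFAP95, CFAP107, CFAP126, CFAP141, CFAP157, CFAP251, DNAAF4, DNAH1, DNAH3, DNAH5, DNAH8, DNAH12, DNAH17, DNAI2 and RSPH10B. The remaining genes with a peak in both replicates were CFAP20, CFAP53, CFAP58, CFAP69, CFAP92, CFAP99, CFAP144, CFAP299, CFAP410 and CFAP418, with mean fold enrichments from 5.58 at CFAP92 to 13.5 at CFAP58.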

How the data were processed

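The data are ATAC-seq peaks of untreated B2B cells in 2 replicates. The authors aligned reads with Bowtie2 2.4.4 against hg38, removed duplicates with their own code and called peaks with MACS2 2.2.7.1 on each replicate, keeping all remaining reads. SAMtools 1.13 is also named in the processing notes. The Tn5 shift and the q limit are not given in the sources used here. The deposited lists give for each peak a linear fold enrichment, which is a ratio, a −log10 p, a −log10 q and a score, which was not used. An overlap of 1 bp or more was enough for a peak to count.

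The members and gene lists were chosen with earlier results of these data known. Genes are those of GENCODE 44, with 1 canonical TSS each. Fragment numbers over summits were computed as those that give both the fold enrichment and, within 0.01, the −log10 p. This step and the overlap were tested on simulated data. Values are given for the 10 genes with the highest mean fold enrichment, those with a peak in 1 replicate, known primary ciliary dyskinesia genes, the 5 with most CpGs and no peak, the 5 with fewest CpGs and a peak in both replicates, and ciliogenesis regulators. Other genes were named to complete the families, and the X-box stretches of CFAP45 and DNAH1 and the promoter stretches were chosen after their values were seen. IFT54, IFT56 and IFT70A matched no gene by symbol, and LRRC6 is DNAAF11. As alternatives, peaks with a −log10 q of 5 or more, promoters of 500 and 3000 bp, any annotated TSS, summits in the promoter, other CpG groups, and each replicate alone were tried. Sequences were read from hg38, and 1 X-box stretch is not reported here. Values were computed in Python 3.11.15 (pandas 2.3.3, scipy 1.17.1, numpy 2.4.6) and drawn with matplotlib 3.10.9.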

Additional observations from a re-analysis of the deposited data

How the results depend on the processing

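The count of motile cilia genes with a promoter peak in both replicates was 47 and ran from 38 to 51 under the alternatives. The count with a peak in neither was 26 and ran from 22 to 32. Leaving out a replicate can only keep or raise these counts, because 1 list then decides. With the TSS of any annotated transcript the share with a peak in both replicates was 64.6%, and that of all genes 56.2%. When only peaks nearest to the gene's own TSS counted, an alternative chosen after the data were seen, these shares were 48.1% and 46.0%, and the count given by CpG groups was 36.8, with 38 genes observed. With either replicate left out, the share of motile cilia genes lay between 62.0% and 64.6%, that of all genes between 53.2% and 58.0%, and the CpG count between 43.5 and 48.0. With 1 fixed base left free, 22 promoters held an X-box in place of 5. The other alternatives moved the shares, the CpG counts, the median fold enrichment and the gene-body count by less than the SD between replicates, or by less than 1.5 times for counts. No paired analysis was possible because there is 1 group. The lowest −log10 q in the lists was 2.48 in replicate 1 and 2.47 in replicate 2, and signal below the calling limit would appear as no peak.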
